A study of Mus musculus with 12 samples.

Results

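The genes described here are the mouse Hox genes of the 4 clusters, Hoxa to Hoxd, together with Pitx1, Tbx4 and Tbx5. They were chosen by symbol alone, as every row of the expression table whose Ensembl identifier maps to a Hox gene with a cluster letter and paralogue number or to one of those 3 regulators. That gave 42 genes, 39 of them Hox genes, of 55413 identifiers. A mean value of at least 3 over the 12 libraries was reached by 32 of the 42, and these were tested among 16459 genes. The values are regularized log (rlog) values in log2 units, so a difference of 1 is a doubling in a well expressed gene and understates the change in a weak one.

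Hox genes encode homeodomain transcription factors and lie in clusters. Their order along the chromosome matches the order in which they are switched on in the embryo and the position along the body at which they act, and low numbers mark the 3′ end of a cluster. In the limb the 5′ genes of the Hoxa and Hoxd clusters, the relatives of Drosophila Abd-B, pattern the segments from the upper limb to the digits, with Hoxa13 and Hoxd13 acting in the paw. Pitx1 and Tbx4 are regulators of hindlimb identity and outgrowth, and Tbx5 initiates the forelimb. Fibroblasts of adult skin and joints keep much of this positional code in culture, and Polycomb and Trithorax protein complexes hold its off and on states.

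The study used BALB/c mice injected in the paw with monosodium urate (MSU) crystals, the crystals of gout. The left, primed paw was injected on day 0 and once more on day 9, the right, non-primed paw on day 9 alone, and RNA was taken on day 18. There were 4 groups of 3 libraries. Vehicle-treated animals gave a non-primed and a primed group. The next group came from the primed side of animals given I-BET151 intraperitoneally at 20 mg/kg per day, beginning 1 day ahead of the first injection of crystals. In the last group, cultured cells of the primed side were kept with 1 µM I-BET151 during the last 24 h. I-BET151 inhibits the BET proteins, which bind acetylated histones. Every culture was grown from collagenase-digested, skin-flayed paws, with cells of 2 to 3 paws pooled, and was kept for 5 passages. The labels call the tissue synovial fibroblasts. They do not say whether the paws were fore or hind paws, whether the libraries came from different animals, or whether the donors of the cells treated in vitro received vehicle. The p-values below therefore measure the spread between these cultures, which may be in part technical. Priming and side of the body cannot be told apart.

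The libraries did not divide as their labels do. In 5 libraries, all 3 non-primed ones and the libraries labelled in vivo 2 and 3, the mean rlog value of 15 pigment-cell genes was 12.44 to 13.95, against 5.22 to 6.45 in the other 7. In the same 5 libraries the mean of 10 fibroblast genes was 6.72 to 10.8, against 14.2 to 15.1 in the other 7. Means of 10 macrophage genes followed the fibroblast genes (3.84 to 6.73 against 8.08 to 9.69). The mean of 8 keratinocyte genes divided in the same way at low levels (0.599 to 1.63 against 2.00 to 2.68), with Krt5, Krt14 and Krt1 below 0 in all 12 and Krt10 at 1.38 to 3.10 against 5.62 to 7.23. Cdh1 was instead highest in the non-primed libraries (4.17 to 6.14, against 2.66 to 3.96 in the 7). The defining fibroblast genes Col1a1 and Col1a2 were therefore high in 7 libraries, whereas Tyrp1 and Dct, which encode melanin enzymes, exceeded 17 in 5 libraries labelled as fibroblasts. Ednrb, of the same pigment-cell list, went the other way (3.28 to 5.31 in the 5, 5.80 to 9.35 in the 7). Sox10 and Mitf were also well expressed in the 7, at 10.17 to 13.36 and 10.31 to 12.74. In the 5 they were at 14.49 to 14.84 and 14.32 to 14.97. In bulk RNA, fewer cells of a type and less RNA per cell cannot be told apart.

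Some genes that respond to BET inhibition went against 1 label. Hexim1, which is induced by BET inhibitors, stood at 12.19, 12.25 and 14.26 in the non-primed libraries, at 11.98 to 12.39 in the primed vehicle libraries and at 13.85 to 14.23 in the 6 treated ones. The library labelled non-primed 3 thus had the value of a treated library. Hist2h2be, a histone gene, was 12.06 in that library and 11.99 and 12.02 in the libraries labelled in vivo 2 and 3, against 8.72 and 8.82 in the other non-primed libraries and 9.38 in the library labelled in vivo 1. The 5 libraries rich in pigment-cell RNA and the 7 poor in it are named below as pigment-rich and pigment-poor, and the calls of the in vivo comparison are given with and without libraries labelled in vivo 2 and 3.

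Levels were compared between genes only after subtracting the log2 of the exon length in kb. On this length-adjusted scale Hoxd13 ranked first of the 42 genes in primed vehicle cells (mean 10.86), followed by Hoxa11 (10.49), Hoxa10 (9.79), Tbx4 (9.26) and Hoxa13 (9.05). Tbx5 ranked last (-3.02). The unadjusted rlog value of Tbx5 ran from -1.22 to -0.53, and those of Hoxb1 and Hoxd1 were also below 0 in all 12 libraries. The most abundant position genes of these cultures were thus the 5′ genes of Hoxa and Hoxd and the hindlimb gene Tbx4, with the forelimb gene at the floor. In the non-primed libraries the order was Tbx4 (9.50), Hoxd13 (9.09), Hoxa10 (9.00), Hoxb9 (7.95) and Hoxa5 (7.13), and Hoxa11 and Hoxa13 came 13th and 21st. The ranges of Tbx4, Hoxd13 and Hoxa10 overlap in the pigment-rich libraries, so their order there is not separated by the spread. The leading 5 genes of the primed vehicle cells did not overlap on this scale.

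**Figure D1:**
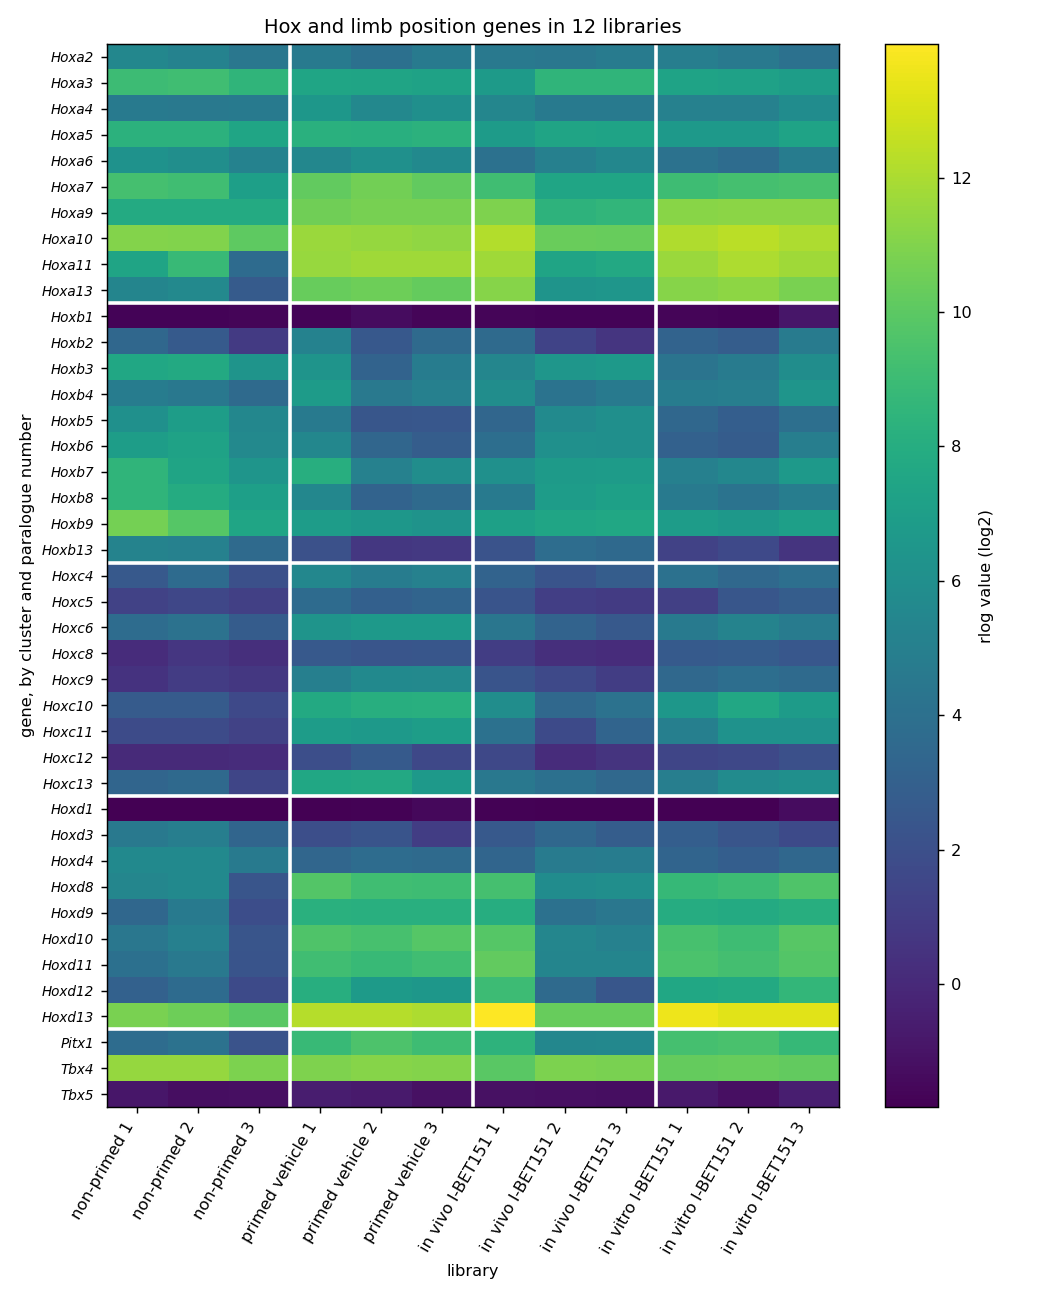
Rlog value (log2, colour) of 41 of the genes (rows, by cluster and paralogue number) in the 12 libraries (columns, by group). Non-primed libraries and the libraries labelled in vivo 2 and 3 share darker Hoxd8 to Hoxd12 rows and most Hoxc rows. The library labelled in vivo 1 looks more like the in vitro libraries.

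The level varied along each cluster, and a dependence on position was not tested. The Hoxa cluster (GRCm38 chromosome 6, minus strand) had all 11 genes above the threshold for testing. In the 7 pigment-poor libraries its median length-adjusted level went from 3.75 at Hoxa2 to 10.55 at Hoxa11. The Hoxd cluster (chromosome 2, 74668310 to 74765142, plus strand) had a low 3′ part, 0.19 at Hoxd3 and 1.83 at Hoxd4, then 7.66 at Hoxd8 and 11.94 at Hoxd13. Hoxd12 (6.43) lay between 2 higher neighbours.

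The Hoxc cluster (chromosome 15, 102921103 to 103036852) was weaker, with Hoxc10 (6.73) at the top and Hoxc8 (0.95) at the bottom of the 7 pigment-poor libraries. Of its 9 genes, 5 were tested. The Hoxb cluster (chromosome 11, 96194316 to 96368256) lacked a high 5′ end. Its highest medians were those of Hoxb9 (5.56) and Hoxb7 (5.32), whose ranges overlapped, so their order is not separated. Hoxb13, which lies apart from the others, was at 0.14. The 4 profiles thus differed in shape, with a high 5′ end in Hoxa and Hoxd.

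Overlap of exons limits some of these values. Of the exon bases of Hoxd3 and Hoxd4, 62.3% and 52.3% belong also to a gene on the same strand, and each overlaps the other. Antisense genes cover 52.9% of Hoxb3, 35.0% of Hoxa11, where the partner is Hoxa11os, and 25.4% of Hoxa3. The strand setting of the counting is not known, so reads of these pairs may be shared.

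**Figure D2:**
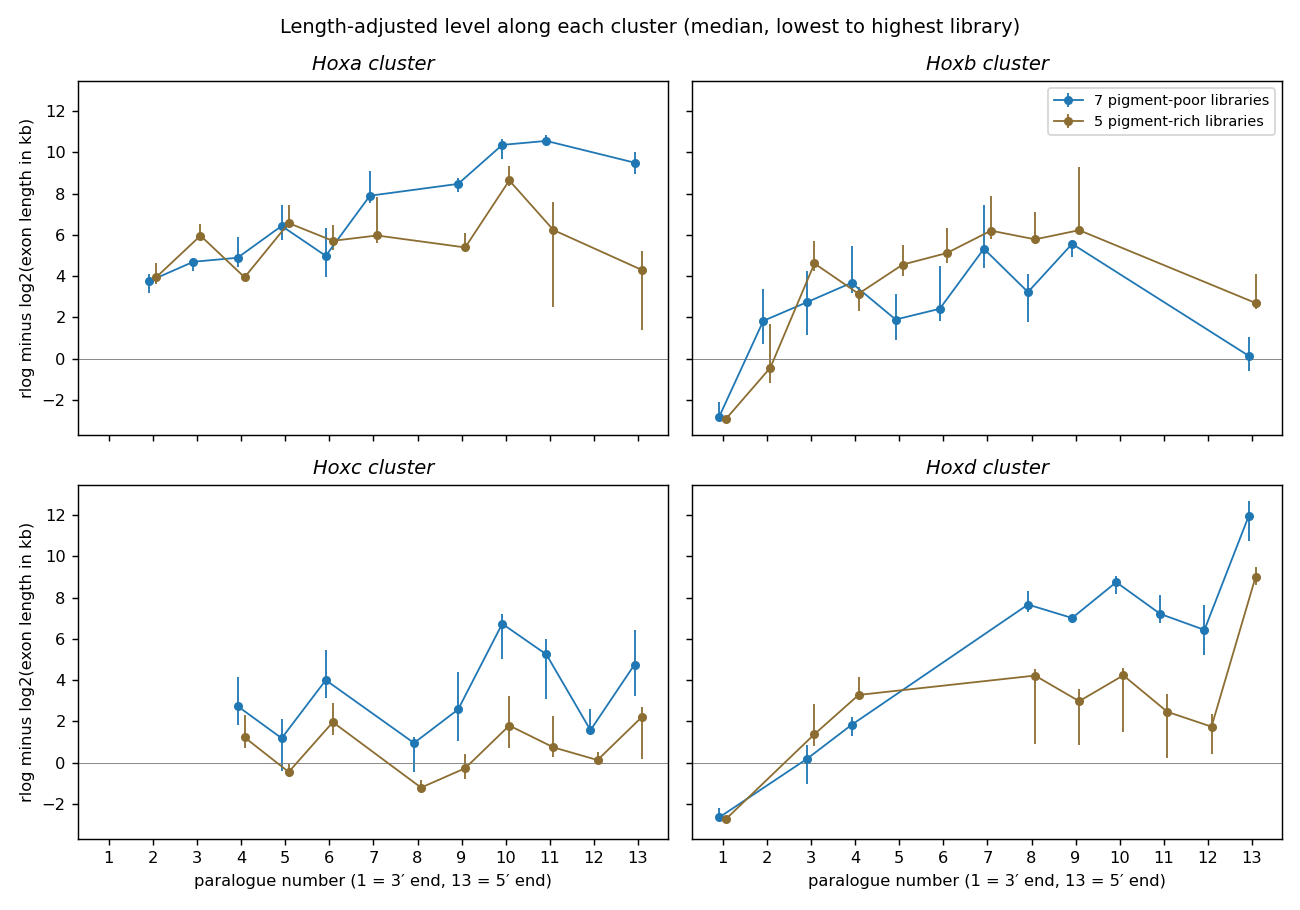
Length-adjusted level (rlog minus log2 of the exon length in kb) against paralogue number, 1 panel per cluster. Points are medians and bars the lowest to highest library, for the 7 pigment-poor and the 5 pigment-rich libraries. The sets separate at the 5′ genes of Hoxa and Hoxd, lie in the reverse order over most of Hoxb, and nearly coincide from Hoxa2 to Hoxa6 apart from Hoxa3 and Hoxa4.

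Set against the pigment-rich libraries, 19 of the 42 genes were higher in every pigment-poor library, 8 were lower in every one, and 15 overlapped. Of the 32 tested genes 16 were higher, 7 lower and 9 overlapped, and among all tested genes the shares without overlap were 24.3% higher and 19.6% lower. These sets were defined from the data, and the counts are a description with no test. By cluster, the higher, lower and overlapping genes numbered 5, 1 and 5 in Hoxa, 0, 6 and 4 in Hoxb, 7, 0 and 2 in Hoxc, and 6, 1 and 2 in Hoxd. Most Hoxb genes therefore went with the pigment-rich libraries and most Hoxc and 5′ Hoxd genes with the others. The library labelled non-primed 3 had the lowest of the 12 values in 17 of the 42 genes.

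The 4 RefSeq promoter windows (GRCm38.p6), each spanning a transcription start, are shown because they belong to the genes on which the treated comparisons below turn. Hoxa7 and Hoxa9 are neighbours that changed in opposite directions with I-BET151 in vitro, and Hoxa13 and Hoxd13 are the paw genes. They lie at chr6:52218524-52218823, chr6:52227321-52227620 and chr6:52260831-52261130 on the minus strand and at chr2:74667975-74668274 on the plus strand. Capitals mark CG dinucleotides.
Hoxa7: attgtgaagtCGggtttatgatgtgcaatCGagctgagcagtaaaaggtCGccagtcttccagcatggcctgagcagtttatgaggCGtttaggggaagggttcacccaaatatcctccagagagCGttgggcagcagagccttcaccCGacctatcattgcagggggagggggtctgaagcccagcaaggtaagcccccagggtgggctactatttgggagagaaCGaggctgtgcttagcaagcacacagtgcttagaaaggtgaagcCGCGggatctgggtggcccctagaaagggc
Hoxa9: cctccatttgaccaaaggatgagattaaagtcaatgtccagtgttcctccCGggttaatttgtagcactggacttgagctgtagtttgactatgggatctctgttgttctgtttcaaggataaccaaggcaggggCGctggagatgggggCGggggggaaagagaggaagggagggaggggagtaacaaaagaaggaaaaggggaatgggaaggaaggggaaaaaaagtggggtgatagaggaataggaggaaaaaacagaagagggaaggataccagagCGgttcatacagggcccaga
Hoxa13: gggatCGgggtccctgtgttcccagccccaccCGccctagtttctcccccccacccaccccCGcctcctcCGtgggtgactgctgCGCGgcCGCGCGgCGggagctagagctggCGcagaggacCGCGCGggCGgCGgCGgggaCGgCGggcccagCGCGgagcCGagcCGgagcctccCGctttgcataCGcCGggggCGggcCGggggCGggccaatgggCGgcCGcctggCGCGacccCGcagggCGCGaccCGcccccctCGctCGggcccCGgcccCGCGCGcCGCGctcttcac
Hoxd13: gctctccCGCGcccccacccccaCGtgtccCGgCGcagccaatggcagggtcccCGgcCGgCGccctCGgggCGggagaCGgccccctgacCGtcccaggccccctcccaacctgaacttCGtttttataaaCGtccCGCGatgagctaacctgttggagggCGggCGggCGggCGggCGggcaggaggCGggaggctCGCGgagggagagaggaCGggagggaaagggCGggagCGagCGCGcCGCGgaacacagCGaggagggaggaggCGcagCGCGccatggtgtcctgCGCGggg

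The Hoxa13 window holds 45 CG dinucleotides and that of Hoxd13 holds 37, counts that 1.9% and 5.6% of all promoter windows reach. Hoxa7 has 9 and Hoxa9 has 4, which 45.8% and 68.6% reach. A promoter was found for 23 of the 42 genes (25 windows), and their median was 14 CG against 7 over all 32817 windows. The paw genes thus have denser CG windows than the Hoxa7 and Hoxa9 pair. Hoxa5 and Hoxa6, which fell in vitro as Hoxa7 did in the fit of 6 libraries, have 29 and 26. Hoxa10, which rose in vitro as the paw genes did in the fit of 6 libraries, has 12 and 21 in its windows. Any link of CG counts to treatment was not tested. The motif TATAAA, searched on both strands, occurs in 20% of the members' windows and in 13.62% of all windows. Hoxd13 carries it and Hoxa13 does not. The homeodomain core TAATTA occurs in 8% of the members' windows, both of Hoxd11, and in 5.3% of all.

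The comparison of primed with non-primed paws asks what a first exposure to crystals leaves behind in the cells. Primed cells had more RNA of Hoxa4, Hoxa7, Hoxa9, Hoxa11 and Hoxa13, of all 5 tested Hoxc genes, of Hoxd8 to Hoxd12 and of Pitx1, and less RNA of Hoxa3, Hoxd4 and 5 Hoxb genes. Of the 32 tested genes 16 were higher and 7 lower in primed cells at an adjusted p under 0.05 (limma). The background is 51.8% of all tested genes called, 28.9% higher and 22.9% lower. The median difference of the members was 1.60, against 0.05 for all tested genes. Every primed library is pigment-poor and every non-primed one pigment-rich, so priming and this division cannot be told apart in any of these values. The filter used the mean of all libraries, so genes near the floor in non-primed cells could pass it through the other groups. Hoxc4, Hoxc10, Hoxc11, Hoxc13 and Hoxd12, all counted as higher, had non-primed means under 3. With quantile normalization the split was 14 higher and 10 lower, against a background of 58.0%.

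At the 5′ end of Hoxa, Hoxa13 stood at 5.39, 5.61 and 2.71 in the non-primed and at 10.34, 10.47 and 10.25 in the primed libraries. The groups did not overlap, as in this direction for 33.7% of all tested genes, and the library labelled non-primed 3 was lowest. The difference was 5.79 ± 1.15 (SE, adjusted p = 0.00324), and 4.86 ± 1.17 without that library (adjusted p = 0.0104). Hoxa11, required with its paralogues for the forearm and lower leg, was at 7.42, 8.80 and 3.67 against 11.54, 11.75 and 11.75, a difference of 5.05 ± 1.30 (adjusted p = 0.0094). Its antisense partner Hoxa11os moved with it, by 3.77 ± 0.98. Hoxa9 was at 7.83 to 7.87 against 10.55 to 10.74 and rose by 2.82 ± 0.53 (adjusted p = 0.00269).

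Hoxa10, although abundant in both groups (10.07 to 11.02 against 11.38 to 11.63, without overlap), was not called (0.79 ± 0.44, adjusted p = 0.156). Of the remaining Hoxa genes, Hoxa7 (1.82 ± 0.58, adjusted p = 0.0248) and Hoxa4 (1.43 ± 0.37, adjusted p = 0.00912) were higher and Hoxa3 was lower (-1.49 ± 0.42, adjusted p = 0.0148). Hoxa2, Hoxa5 and Hoxa6 were not called. Without the library labelled non-primed 3 Hoxa7 was at 1.12 (adjusted p = 0.0652), and its call was also lost without any 1 of the primed libraries (adjusted p of 0.0511 to 0.0745). With quantile normalization Hoxa4 was at 0.35 and not called (adjusted p = 0.412).

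In the Hoxd cluster, Hoxd10 was at 4.43, 5.09 and 2.34 in the non-primed and at 9.61, 9.40 and 9.80 in the primed libraries, a difference of 5.65 ± 1.11 (adjusted p = 0.00313). Hoxd8 (4.83 ± 1.01), Hoxd9 (4.83 ± 0.96), Hoxd11 (5.42 ± 1.12) and Hoxd12 (4.30 ± 1.38) were higher as well. These 5 genes thus differed by 4 to 6 log2 units between groups that did not overlap, as in this direction for 33.7% of all tested genes. The library labelled non-primed 3 was the lowest in each of them. The non-primed mean of Hoxd12 (2.84) was under the filter. Hoxd12 was the weakest call (adjusted p = 0.0242), and it was lost without non-primed library 1 or 3 or primed library 1 or 2 (adjusted p of 0.0503 to 0.0764). Hoxd13 was at 10.79, 10.48 and 9.93 against 12.25, 12.21 and 12.06, without overlap. Its difference of 1.77 ± 0.79 was not called in the fit of all libraries (adjusted p = 0.0826). In a fit of the 6 libraries compared, where the spread within the in vivo group does not enter, it was called (1.77 ± 0.23, adjusted p = 0.00144). Hoxd4, at the 3′ end, fell by 1.77 ± 0.44 (adjusted p = 0.00825).

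All 5 tested Hoxc genes were higher in primed cells. Of these, Hoxc4, Hoxc10, Hoxc11 and Hoxc13 had non-primed means of 1.60 to 2.78, under the filter. They were tested only through the other groups, which favours this direction. Hoxc10, a gene of hindlimb and lumbar levels, was at 2.73, 2.70 and 1.66 in the non-primed and at 7.76, 8.09 and 8.14 in the primed libraries, and rose by 5.63 ± 0.59 (adjusted p = 0.000524). Hoxc11 rose by 5.28 ± 0.56, Hoxc13 by 4.57 ± 0.57, Hoxc6 by 3.01 ± 0.49 and Hoxc4 by 2.37 ± 0.43. In each of them the groups lay apart in this direction, as they did in 33.7% of all tested genes, and all 5 calls held without the library labelled non-primed 3. The 4 Hoxc genes under the filter had the same order, for example Hoxc9 with 0.49, 1.01 and 0.74 against 4.98, 5.69 and 5.64.

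The Hoxb cluster went the other way. Hoxb8 was at 8.52, 7.88 and 7.11 in the non-primed and at 5.48, 3.18 and 3.62 in the primed libraries, and fell by 3.74 ± 0.76 on the log2 scale (adjusted p = 0.00342). Hoxb5 (-3.05 ± 0.80), Hoxb9 (-2.74 ± 0.65), Hoxb6 (-2.74 ± 0.89) and Hoxb3 (-2.46 ± 0.77) fell too, with adjusted p of 0.00642 to 0.0256. The calls of Hoxb3 and Hoxb6 were each lost without non-primed library 1 or 2 or primed library 2 or 3 (adjusted p of 0.0559 to 0.0958). Hoxb4 and Hoxb7 were not called. Hoxb13, under the filter, had 5.23, 5.11 and 3.64 in the non-primed and 2.07, 0.75 and 0.80 in the primed libraries.

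Among the hindlimb regulators, Pitx1 was at 3.79, 4.15 and 2.20 in the non-primed and at 8.83, 9.55 and 9.09 in the primed libraries. It rose by 5.78 ± 0.75 (adjusted p = 0.000884), or by 5.19 ± 0.76 without the library labelled non-primed 3. Tbx4 was at 11.48, 11.47 and 10.85 against 10.95, 11.10 and 11.03, and its groups overlapped (-0.24 ± 0.25, adjusted p = 0.438). The pair thus differed in pattern, with Tbx4 abundant in cultures of both kinds and Pitx1 weak in the pigment-rich ones. Without the library labelled non-primed 3 the members gave 14 higher and 7 lower, against a background of 48.9%.

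**Figure D3:**
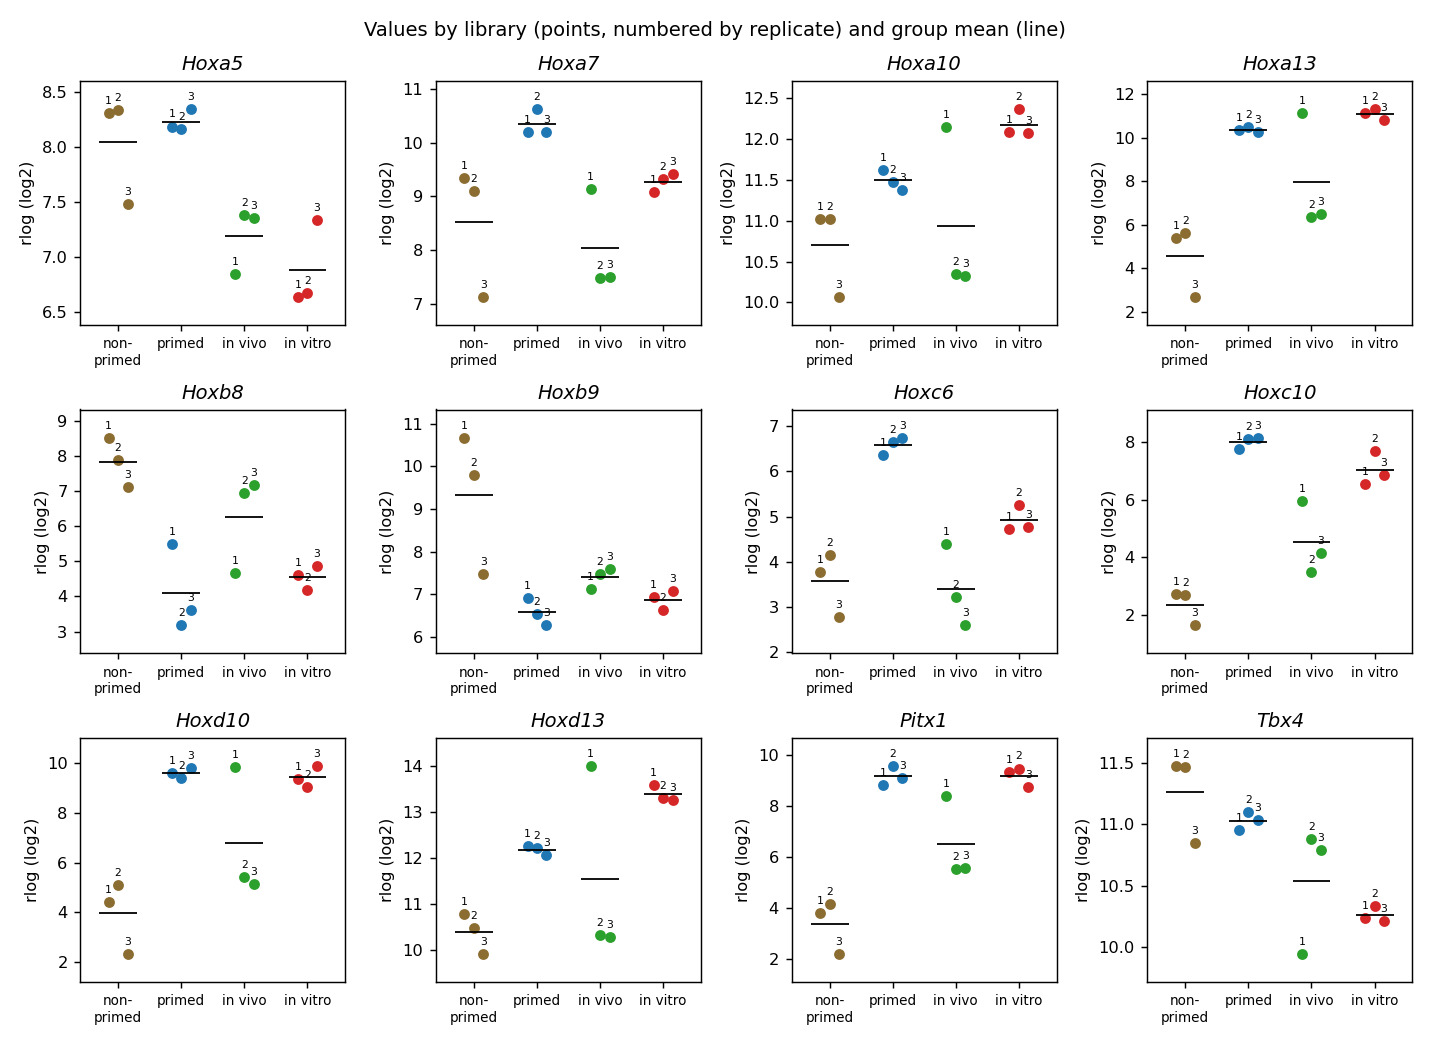
Rlog values (log2, each panel with its own axis) of 12 of the genes in every library, as points numbered by replicate, with the group mean as a line. In the in vivo group library 1 lies far from libraries 2 and 3 for Hoxa10, Hoxa13, Hoxd10, Hoxd13 and Pitx1, and Hoxd13 is higher in all 3 in vitro libraries than in any primed one.

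Treatment of the mice was compared with vehicle within primed paws. As labelled, the in vivo group had less RNA of all 5 tested Hoxc genes, Hoxa4, Hoxa5, Hoxa7, Hoxd9 and Pitx1, and more of Hoxb8. That is 1 higher and 10 lower of 32 (limma), against a background of 39.7% called, 17.9% higher and 21.8% lower. The median difference was -1.10 for the members and -0.05 for all tested genes. Libraries labelled in vivo 2 and 3 are pigment-rich and the remaining one is not, so the group mean mixes the 2 kinds of culture. With quantile normalization the members gave 4 higher and 7 lower, against a background of 45.9%.

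For Hoxa13, Hoxd10 and Hoxd13, in vivo library 1 differed more from libraries 2 and 3 than from the primed vehicle group. Hoxa13 was at 11.10 in library 1 and at 6.34 and 6.51 in libraries 2 and 3, against 10.25 to 10.47 in primed vehicle cells (-2.37 ± 1.15, adjusted p = 0.118). Hoxd10 was at 9.83, 5.44 and 5.12 against 9.40 to 9.80 (-2.80 ± 1.11, adjusted p = 0.0663). Hoxd13 was at 13.99, 10.32 and 10.29 against 12.06 to 12.25 (-0.64 ± 0.79, adjusted p = 0.527). For these genes library 1 lay above every primed library and libraries 2 and 3 below. Without libraries 2 and 3 the differences turned to 0.75, 0.23 and 1.82, and that of Hoxa10 turned from -0.56 (adjusted p = 0.323) to 0.65. Without library 1 the members gave 4 higher and 19 lower, against a background of 60.5%.

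The Hoxc genes were lower in all 3 libraries. Hoxc6 was at 4.40, 3.23 and 2.60 in the in vivo and at 6.36, 6.65 and 6.75 in the primed vehicle libraries, and fell by 3.18 ± 0.49 (adjusted p = 0.00265). Hoxc10 was at 5.94, 3.50 and 4.16 against 7.76 to 8.14 and fell by 3.46 ± 0.59 (adjusted p = 0.00367). Hoxc11 fell by 3.85 ± 0.56, Hoxc13 by 3.34 ± 0.57 and Hoxc4 by 2.36 ± 0.43, each without overlap (26.4% of all tested genes were lower without overlap). In each of the 5 genes the library labelled in vivo 1 also lay below every primed library.

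Of the Hoxa genes, Hoxa7 fell by 2.31 ± 0.58 (adjusted p = 0.0144), Hoxa4 by 1.17 ± 0.37 (adjusted p = 0.0303) and Hoxa5 by 1.04 ± 0.32 (adjusted p = 0.028). Hoxa5 was at 6.85, 7.38 and 7.35 against 8.16 to 8.34, so here all 3 libraries agreed in direction. With quantile normalization its difference was -0.28 and that of Hoxa4 -0.37, neither of them called. Pitx1, at 8.37, 5.51 and 5.57 against 8.83 to 9.55, fell by 2.67 ± 0.75 (adjusted p = 0.0209). Tbx4 was at 9.95, 10.88 and 10.79 against 10.95 to 11.10, without overlap and not called (-0.49 ± 0.25, adjusted p = 0.131). The calls of Hoxd9 (-2.65 ± 0.96, adjusted p = 0.0488) and Hoxb8 (2.16 ± 0.76, adjusted p = 0.0441) were near the threshold and were lost without in vivo library 2 or 3 (adjusted p of 0.149 to 0.179). Without library 2 or without library 3, the calls of Hoxa4, Hoxa5, Hoxa7 and Pitx1 were lost as well (adjusted p of 0.0618 to 0.111).

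With libraries labelled in vivo 2 and 3 left out of the group, 1 of the 32 genes, Hoxd13, was called (1.82 ± 0.29, adjusted p = 0.0394), against a background of 1.18%. A fit of the 7 pigment-poor libraries, added after the data had been seen, assumes that the lone in vivo library varies like the other groups. It called 4 genes higher and 8 lower, against a background of 20.4%. Hoxd13 (1.82 ± 0.16), Hoxd11 (1.19 ± 0.24), Hoxa13 (0.75 ± 0.21) and Hoxa10 (0.65 ± 0.16) were higher. The 5 Hoxc genes (-2.83 to -1.95), Hoxa5 (-1.38 ± 0.34), Hoxa7 (-1.21 ± 0.24) and Tbx4 (-1.08 ± 0.13) were lower. The paw genes were thus higher and the Hoxc genes lower in this library than in primed vehicle cells, but it is 1 culture.

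Exposure of the cultured cells to I-BET151 for 24 h is the comparison with primed vehicle cells in which both groups are pigment-poor. In the fit of all 12 libraries 1 of the 32 genes was called, Hoxa5, which was lower (-1.35 ± 0.32, adjusted p = 0.0438), against a background of 4.51% (1.76% higher, 2.76% lower). This fit takes its spread in part from the divided in vivo group, and at an unadjusted p under 0.05 it had 7 members and 3922 of the 16459 genes. The call was lost without any 1 of the 6 libraries compared (adjusted p of 0.0506 to 0.176). In a fit of those 6 libraries alone, Hoxa5, Hoxa6, Hoxa7, Hoxc4, Hoxc6, Hoxc13 and Tbx4 were lower in treated cells and Hoxa9, Hoxa10, Hoxa13 and Hoxd13 higher. These are 4 higher and 7 lower of 32, against a background of 30.3% called (13.4% higher, 16.9% lower). The values below come from that fit unless the fit of 12 is named.

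The direction changed along the Hoxa cluster between Hoxa7 and Hoxa9, a place picked after the values were seen. Hoxa5, at 8.19, 8.16 and 8.34 in the vehicle and at 6.64, 6.67 and 7.34 in the treated libraries, fell by 1.35 ± 0.24 in the fit of 6 (adjusted p = 0.0082). Hoxa6, at 5.46 to 6.13 against 3.76 to 4.78, fell by 1.54 ± 0.34 (adjusted p = 0.0173). Hoxa7, at 10.20, 10.63 and 10.20 against 9.07, 9.33 and 9.42, fell by 1.07 ± 0.17 (adjusted p = 0.00542). In all 3 genes the groups lay apart, as they did in this direction in 25.7% of all tested genes. Hoxa9, the next gene, was at 10.55, 10.74 and 10.72 against 11.17, 11.26 and 11.22 and rose by 0.54 ± 0.09 (adjusted p = 0.00727).

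Towards the 5′ end, Hoxa10 was at 11.63, 11.48 and 11.38 in the vehicle and at 12.08, 12.37 and 12.07 in the treated libraries. It rose by 0.68 ± 0.12 in the fit of 6 (adjusted p = 0.00705), and its adjusted p in the fit of 12 was 0.389. Hoxa13 was at 10.34, 10.47 and 10.25 against 11.12, 11.30 and 10.80 and rose by 0.72 ± 0.15 (adjusted p = 0.0126, or 0.761 in the fit of 12). The groups of both genes lay apart. The share of all tested genes that were higher without overlap is not given here, so this separation has no reference. In the other direction, 25.7% of all tested genes were lower without overlap. Hoxa11 between them, at 11.54 to 11.75 against 11.58 to 12.04, was not called (0.11 ± 0.14).

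In the Hoxd cluster Hoxd13 was at 12.25, 12.21 and 12.06 in the vehicle and at 13.58, 13.30 and 13.25 in the treated libraries. It rose by 1.20 ± 0.11 in the fit of 6 (adjusted p = 0.00206), and was not called in the fit of 12 (1.20 ± 0.79, adjusted p = 0.395). Hoxd13 was thus the member with the largest rise among those called in that fit. Hoxd10 was not called (-0.16 ± 0.23, adjusted p = 0.623), nor were Hoxd8, Hoxd9, Hoxd11 and Hoxd12.

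All 5 tested Hoxc genes were lower in every treated library than in any vehicle library. Hoxc6, at 6.36, 6.65 and 6.75 against 4.71, 5.27 and 4.76, fell by 1.67 ± 0.26 (adjusted p = 0.0052), Hoxc13 by 1.76 ± 0.40 (adjusted p = 0.0184) and Hoxc4 by 1.28 ± 0.29 (adjusted p = 0.0186). Hoxc10, at 7.76 to 8.14 against 6.54 to 7.66, narrowly missed the threshold (-0.98 ± 0.32, adjusted p = 0.0552), and Hoxc11 was not called (-1.06 ± 0.38, adjusted p = 0.0734). Over all tested genes, 25.7% were lower without overlap. No Hoxb gene was called in either fit. In most of those tested the vehicle libraries were spread widely, as in Hoxb3 with 6.33, 3.23 and 4.83. The treated libraries were spread too, with 4.23, 4.73 and 5.93 in Hoxb3. Primed library 1 and in vitro library 3 were the highest of their groups in every tested Hoxb gene.

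Tbx4, at 10.95, 11.10 and 11.03 in the vehicle and at 10.24, 10.33 and 10.21 in the treated libraries, fell by 0.77 ± 0.09 in the fit of 6 (adjusted p = 0.00317, or 0.0967 in the fit of 12). Pitx1, at 8.83 to 9.55 against 8.75 to 9.46, overlapped (0.02 ± 0.26, adjusted p = 0.955). The hindlimb regulators again differed in pattern, now with Tbx4 apart and Pitx1 overlapping. The pigment-cell genes had a mean of 6.01 to 6.45 in the vehicle and 5.22 to 5.68 in the treated libraries, and the fibroblast genes 14.5 to 15.1 and 14.2 to 14.7. Their part in these differences was not tested.

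**Figure D4:**
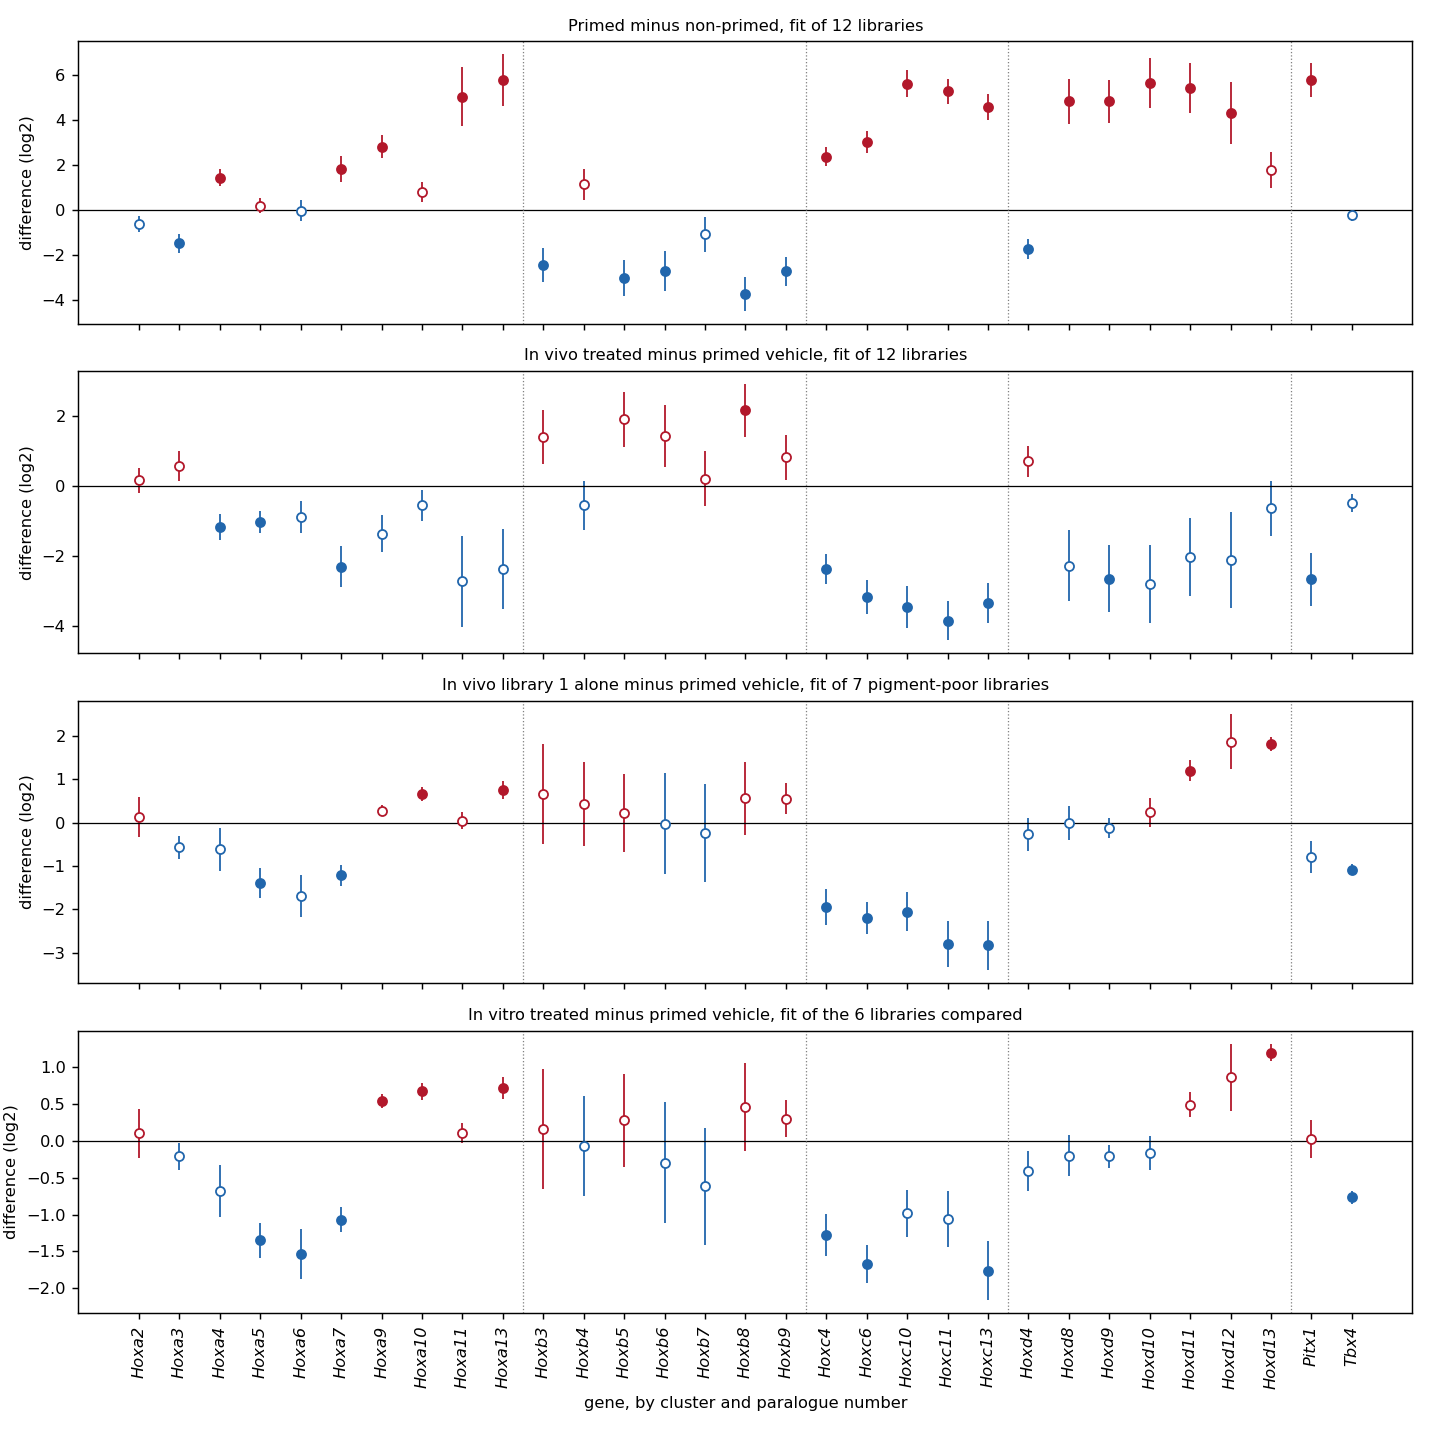
Differences (log2, points, with SE as bars) of 31 tested genes, by cluster and paralogue number, in 4 fits. Filled points passed an adjusted p under 0.05 (limma), red is higher and blue lower. In the lowest panel the sign changes between Hoxa7 and Hoxa9, and all 5 Hoxc points lie below 0.

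The treated groups were compared with each other to set exposure in the animal beside exposure in the dish. No member was called, and no gene of the 16459 (limma, background 0%). At an unadjusted p under 0.05 there were 15 members and 5341 genes. Hoxa13 was at 11.12, 11.30 and 10.80 in the in vitro libraries against 11.10, 6.34 and 6.51 in the in vivo ones, and Hoxd13 at 13.58, 13.30 and 13.25 against 13.99, 10.32 and 10.29. In vivo library 1 lay within the in vitro range for Hoxa13 and above it for Hoxd13, and the other 2 lay below it for both. The median difference of the members was 1.16, and -0.03 with in vivo libraries 2 and 3 left out, again with no member called. Without library 1 instead, 17 members were higher and 6 lower, against a background of 49.1%.

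Genes that work with or on the Hox genes were taken as lists, to be read against the shares of all tested genes called: 51.8% for primed against non-primed cells, 39.7% with in vivo treatment, and in vitro 4.51% in the fit of 12 and 30.3% in the fit of 6. Without in vivo libraries 2 and 3, 0 genes of the 4 lists below were called with in vivo treatment (background 1.18%). Of 9 Hox cofactors, homeodomain proteins that bind DNA together with Hox proteins, 2 were higher and 3 lower in primed than in non-primed cells (median -0.52). Meis3 rose by 1.34 ± 0.23 and Meis2 fell by 2.54 ± 0.84. The call of Meis2 was lost without non-primed library 1 or 3 or primed library 1 or 2 (adjusted p of 0.0517 to 0.0853). With in vivo treatment Meis3 fell by 0.99 ± 0.23 and Pbx4 rose by 1.24 ± 0.34, as 2 of the 4 cofactors called there. Both calls were lost in the fit of 6 and without in vivo library 2 or 3 (adjusted p of 0.053 to 0.0814), and without both libraries the differences were -0.35 and 0.47. In vitro no cofactor was called in the fit of 12. In the fit of 6 Pknox2 rose by 2.17 ± 0.39 and Pbx2 fell.

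Of 28 tested limb patterning genes, 17 were higher and 7 lower in primed than in non-primed cells (median 3.49). Prrx1, a marker of limb mesenchyme, rose by 6.82 ± 1.35, and Alx1 and Dlx6, which act in the craniofacial skeleton, fell by 8.38 ± 1.54 and 7.53 ± 1.20. In vivo 6 were higher and 10 lower (median -1.93), with Alx1 5.53 ± 1.54 higher and En1, a gene of the ventral limb ectoderm, 4.94 ± 1.15 lower. The call of Alx1 was lost in the fit of 6 and without in vivo library 2 or 3 (adjusted p of 0.0829 to 0.0897), and without both libraries Alx1 was at 0.72 and En1 at -2.42. The list mean was 5.17 to 6.71 in the 5 pigment-rich libraries and 7.76 to 8.16 in the others. In vitro, Ptch1, the Hedgehog receptor, was the single gene of the list called in the fit of 12 (-1.03 ± 0.23, adjusted p = 0.036), and the call was lost without any 1 of the 6 libraries compared (adjusted p of 0.0545 to 0.149). The fit of 6 had 5 higher and 7 lower, among them Twist1 (1.34 ± 0.12), En1 (-1.87 ± 0.29) and Msx2 (-1.52 ± 0.25).

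Of 31 Polycomb and Trithorax genes, 0 were higher and 19 lower in primed than in non-primed cells (median -0.57), and 17 were higher and 1 lower with in vivo treatment (median 0.44). Ezh2, the histone methyltransferase of Polycomb repressive complex PRC2, fell by 2.86 ± 0.51 and rose by 2.29 ± 0.51 in these comparisons, and its partner Suz12 fell by 1.70 ± 0.44 in the first. Cbx2, a reader of the PRC2 mark, fell by 1.66 ± 0.29 and rose by 1.75 ± 0.29. Without in vivo libraries 2 and 3 the in vivo differences of Ezh2 and Cbx2 were 0.75 and 1.07, and in the fit of 6 the in vivo counts were 3 higher and 1 lower, against a background of 24.0%. The list mean was 12.07 to 12.10 in the 5 pigment-rich libraries and 11.35 to 11.49 in the others, so it too followed that division. In vitro none was called in the fit of 12, and 4 were higher and 2 lower in the fit of 6.

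Of the 14 tested genes that neighbour the clusters, 2 were higher and 7 lower in primed cells (median -0.48). Evx2, the homeobox gene beside Hoxd13, rose by 4.43 ± 1.06. Cbx5, beside the Hoxc cluster, fell by 1.95 ± 0.39 and rose by 1.66 ± 0.39 with in vivo treatment, where 5 neighbours were higher and 0 lower (median 0.24). Without in vivo libraries 2 and 3 Cbx5 was at 0.54 and not called. The neighbours called in primed cells thus moved in both directions. In the fit of 6, 2 neighbours were lower in vitro and 0 higher.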

How the data were processed

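RNA was sequenced from 12 cultures in 4 groups of 3, and group membership follows the sample titles. A stranded mRNA kit was used, per the labels' protocols. The submitters' processing notes name build GRCm38 and the tools DESeq2 1.24.0, Subread 1.6.1 with featureCounts, STAR 2.6.1c and cutadapt 1.18. In the sources used here, settings, annotation and the strand option of the counting are not given. Deposited values are the authors' rlog values, in log2 units, for 55413 identifiers, of which 19136 are listed at 0 in every library. They keep no counts, so the depth is unknown and no counting interval was computed.

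Symbols, coordinates and exon lengths came from GENCODE release M21. Genes with a mean of at least 3 (16459) were fitted with limma 3.58.1 in R 4.3.3, with 1 mean per group over 12 libraries and a variance trend. P-values were two-sided and Benjamini-Hochberg adjusted over all tested genes, and called under 0.05. The script was tested on simulated data. An exact test of 3 against 3 was not used. Named with tests were called members, Hoxa10, Hoxa13, Hoxc10, Hoxd10, Hoxd13, Pitx1 and Tbx4, and, from each list, the called genes with the largest differences (at most 3). Genes printed from the fit of 6 libraries, and Hoxa11, Hoxc11 and Hoxd12 where not called, were added after their values were seen. The members and lists were chosen with earlier results of these data known. The closing section gives the alternatives. Sequences are RefSeq's. Results of some genes are not reported here.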

Additional observations from a re-analysis of the deposited data

How the results depend on the processing

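The alternatives were other filters, no variance trend, robust moderation, 2 other normalizations, array weights, the fit of the 6 libraries compared, a replicate block, and the removal of single libraries. The fit of the 7 pigment-poor libraries was added after seeing the data. Same-numbered libraries correlated in their deviations from the group means at -0.268 to 0.158, so the numbers do not pair them. Between different numbers, in vitro library 3 correlated with primed library 1 at 0.421 and with primed library 2 at -0.438. In vitro library 1 correlated with primed library 2 at 0.359, and in vitro library 2 with primed library 3 at 0.111. Whether these cultures share a source was not tested, and the fits treat them as unpaired. With a replicate block the members gave 0 higher with in vivo treatment and 0 lower in vitro, and over all genes 49 were higher and 124 lower in vitro. The cause of the changes below was not tested, apart from fewer libraries or genes where a setting removes them.

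For primed against non-primed cells, members lower were 4 with a minimum mean of 5, and genes lower were 5680 with quantile normalization (main counts 7 and 3774). Leaving out 1 library gave 14 to 16 members higher and 5 to 8 lower, and 3848 to 4414 and 2858 to 3630 genes. Quantile normalization moved the median of all genes from 0.05 to -0.24 here, and from -0.05 to 0.19 for in vivo treatment. Median-centred libraries moved them to -0.08 and 0.13.

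For in vivo treatment, 1 member was higher in the main fit. The count was 0 with no filter, 4 with quantile normalization, 7 with array weights, 0 in the fit of 6, 4 in the fit of 7 and 0 to 4 with 1 library left out. Members lower (10) were 6 with a minimum mean of 5, 20 with array weights, 0 without in vivo libraries 2 and 3, and 5 to 19 with 1 library left out. Genes higher (2946) were 4595 with quantile normalization, 5822 with array weights, 1675 in the fit of 6, 1429 in the fit of 7, 62 without libraries 2 and 3, and 989 to 4450 with 1 left out. Genes lower (3585) were 6760 with array weights, 2275 in the fit of 6, 1936 in the fit of 7, 133 without libraries 2 and 3, and 1446 to 5512 with 1 left out. Without libraries 2 and 3, and in the fit of 7, Hoxa10 (0.65), Hoxa13 (0.75), Hoxd10 (0.23) and Hoxd13 (1.82) changed sign.

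For in vitro treatment, members higher (0) were 3 with array weights and 4 in the fits of 6 and of 7, and 0 with any library left out. Members lower (1) were 0 with quantile normalization, 8 with array weights, 7 in the fits of 6 and of 7, and 0 with any library left out. Genes higher (289) were 573 with quantile normalization, 2973 with array weights, 2207 in the fit of 6, 2216 in the fit of 7, and 1 to 118 with 1 left out. Genes lower (454) were 915 with no filter, 244 with a minimum mean of 5, 3353 with array weights, 2776 in the fit of 6, 2773 in the fit of 7, and 11 to 249 with 1 left out. Pitx1 changed sign without primed library 1 (-0.14) or 3 (-0.01) and without in vitro library 1 (-0.05) or 2 (-0.12), and Hoxd10 without in vitro library 2 (0.027). With 1 library left out, Pitx1 ran from -0.14 to 0.24 and Hoxd10 from -0.39 to 0.027.

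For in vitro against in vivo treatment, where nothing was called, array weights gave 18 members higher and 12 lower and 6519 genes higher and 5724 lower. With no filter 1 gene was higher. With 1 library left out, members higher were 0 to 17, members lower 0 to 6, genes higher 0 to 4474 and genes lower 0 to 3611, with the highest counts without in vivo library 1. Without in vivo libraries 2 and 3, and in the fit of 7, Hoxa13 (-0.029), Hoxd10 (-0.40), Hoxd13 (-0.61) and Tbx4 (0.31) changed sign.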

Other observations

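Of 17 listed noncoding genes of the clusters 13 were in the table, and 6 of these passed the filter. Hotair and Hottip did not (means of 1.68 and 2.81 over the 12 libraries) and were not tested. Hotair, a long noncoding RNA transcribed from the Hoxc cluster, was at 0.16, 0.14 and 0.33 in the non-primed libraries and at 3.64, 3.66 and 2.36 in the primed vehicle libraries. It was at 0.44, 0.29 and 1.38 in the in vivo and at 2.17, 2.43 and 3.12 in the in vitro libraries. Unlike the 5′ Hoxa and Hoxd genes, Hotair was thus low in all 3 in vivo libraries. These are low values throughout, and in vivo library 1 is 1 culture. Hottip, from the 5′ end of the Hoxa cluster, was at 0.53, 0.52 and 0.77 in the non-primed and at 4.04, 4.11 and 3.52 in the primed vehicle libraries. It was at 4.91, 1.29 and 1.06 in the in vivo and at 4.68, 4.16 and 4.09 in the in vitro libraries, so in vivo library 1 was the highest of the 12. Gm53, the other called noncoding gene, was 2.90 ± 0.59 higher in primed than in non-primed cells (limma).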
